A study of Mus musculus with 38 samples.

Results

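The nuclear genes for subunits of the mitochondrial respiratory chain were followed in mouse bone marrow and in sorted osteoclast precursors after zoledronic acid (ZA), granulocyte colony-stimulating factor (G-CSF) or both. The members are protein-coding genes chosen by symbol: the Nduf subunit series, the 4 Sdh genes, the Uqcr genes, Cox4 to Cox8, the Atp5 genes, Cyc1 and Cycs. The annotation holds 87 such genes, and 86 of them are among the 47729 genes of the marrow table and the 46679 genes of the precursor table; a second Atp5o annotation is in neither table. By complex these are 37 genes of complex I, 4 of complex II, 9 of complex III, cytochrome c, 18 of complex IV and 17 of ATP synthase, which is counted as complex V. Female C57BL/6J mice, 6 to 7 weeks old, received ZA, a bisphosphonate that blocks bone resorption, at 100 µg/kg, recombinant human G-CSF at 50 µg/kg a day for 3 days, or ZA with G-CSF begun 2 days later; untreated mice were the controls. Whole marrow comprised 2 libraries of the combined treatment, 3 of G-CSF, 2 of ZA and 2 of untreated mice. The precursors, sorted as lineage-negative CD115-positive cells, comprised 3 combined, 3 G-CSF, 1 ZA and 1 untreated library of the first sequencing run. The stated question is how these treatments alter gene expression in both tissues, by pairs of groups. The labels number biological replicates without saying whether each is 1 mouse or a pool.

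The respiratory chain passes electrons from NADH (complex I) and succinate (complex II) through complex III and cytochrome c to oxygen at complex IV, and ATP synthase uses the proton gradient that results. Most subunits are encoded in the nucleus, and a small core is encoded by mitochondrial DNA, so each complex except complex II is assembled from both genomes. Several complex IV subunits exist as tissue isoforms, of which the muscle forms Cox6a2, Cox7a1 and Cox8b and the testis forms Cox6b2 and Cox8c are the usual examples.

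Marrow libraries held 6.24 M to 16.2 M estimated counts and the run 1 precursor libraries 21.0 M to 33.2 M. In untreated marrow replicate 1 small RNA genes took 39.95% of the TPM (transcripts scaled for length and to the same total in each library), against 7.97% to 15.2% in the other marrow libraries. Csf1r, which encodes the sort marker CD115, averaged 416 ± 25.9 CPM (counts scaled to library size, SD, n = 5) in precursors. In run 1 marrow it averaged 131 ± 37 CPM (SD, n = 3). Of 10 monocyte and macrophage markers, Csf1r among them, 7 were called higher and 1 lower in precursors. Of all genes 21.1% were called higher and 23.5% lower there. In run 2, 8 of the 18 libraries of that table were closest to a run 1 library of the other tissue, and so the precursor results rest on run 1. Nnt, a mitochondrial gene that carries a deletion in C57BL/6J mice and was named after its values were seen, had 7.49 to 13.2 TPM in the 5 combined and G-CSF marrow libraries and 1.46 to 3.89 TPM in the 4 ZA and untreated ones. In run 1 precursors it had 5.72 to 10 TPM in every group, with 9.56 TPM in the ZA and 10 TPM in the untreated library. These values cover the whole gene and not the deleted exons, and the part of genetic background in the marrow comparisons was not tested.

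Levels per length, in TPM, differed widely among the members, and Cox7b led in both tissues. This order rests on the length implied by the ratio of counts to TPM. That length was 0.106 of the members' median for Cox7b, 0.713 for Sdha and 1.47 for Atp5b. In counts Cox7b had 41.2 to 87.3 CPM in marrow, under Atp5b with 657 to 973 CPM. In precursors the 10 highest members by mean over 8 libraries were Cox7b with 1393 TPM, Atp5j, Atp5b, Sdha, Cox6b1, Cox5b, Cox4i1, Ndufa10, Cox7c and Atp5a1 with 287 TPM. In marrow the 10 highest by mean over 9 libraries were Cox7b with 696 TPM, Atp5b with 634 TPM, Atp5j, Cox6b1, Sdha, Cox4i1, Cox6a1, Cox5b, Cox7c and Atp5h with 241 TPM. The ranges of neighbours overlapped: Cox7b lay between 404 and 1021 TPM in marrow and Atp5b between 289.5 and 824 TPM. Cox7b, Cox6b1, Cox4i1 and Cox5b are complex IV subunits, Atp5b is the catalytic beta subunit of ATP synthase, and Sdha is the flavoprotein of complex II. The 5 lowest members of marrow above 0 were Cox8b (1.52 TPM), Atp5s (1.32 TPM), Cox4i2 (0.40 TPM), Ndufa4l2 (0.09 TPM) and Cox7b2 (0.01 TPM), and Cox8c was listed at 0 in every marrow and run 1 precursor library. Cycs, which encodes the electron carrier cytochrome c, had 11.0 TPM in precursors and 4.54 TPM in marrow. Its partner Cyc1 had 53.3 TPM in precursors and 41.5 TPM in marrow. Implied lengths were 7.43 of the members' median for Cycs and 2.79 for Cyc1. In counts the gap was smaller, with 45.1 to 70.6 CPM for Cycs and 96.7 to 113 CPM for Cyc1 in precursors. Cycs and several other members have processed pseudogene copies, so reads may be split among copies and their levels are uncertain.

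**Figure D1:**
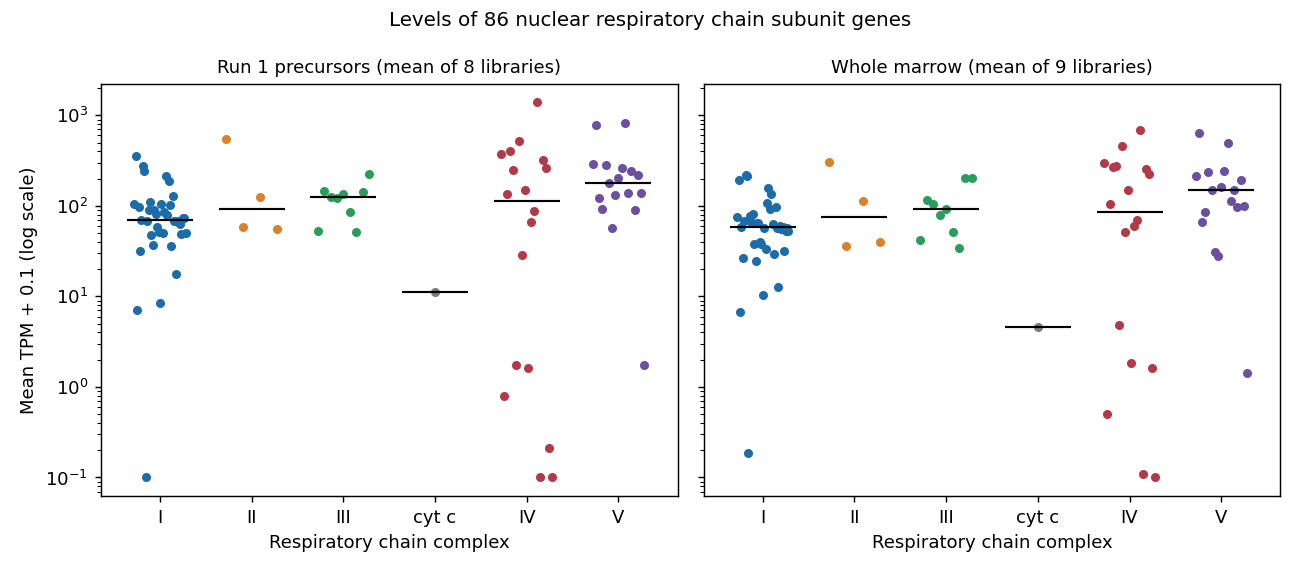
Mean TPM + 0.1 (log axis) of each of the 86 members in run 1 precursors (left, 8 libraries) and whole marrow (right, 9 libraries), by complex; each point is a gene and the bar is the median of the complex. In both tissues Cox7b is the highest point, and the lowest complex IV points are tissue isoforms such as Cox8b and Cox8c.

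Isoform use was weighted to the ubiquitous forms in both tissues. Cox6a1 had 246 TPM in precursors and 279 TPM in marrow, against 1.67 TPM and 4.74 TPM for Cox6a2. Cox4i1, the common form of the regulatory subunit 4, had 378 TPM in precursors and 298 TPM in marrow, and Cox4i2, known for its induction by low oxygen in lung, had 0.70 TPM and 0.40 TPM. Cox7a2 reached 66.7 TPM in precursors and 59.7 TPM in marrow, Cox7a2l, a factor in supercomplex assembly, 88.7 TPM and 69.0 TPM, and Cox7a1 1.5 TPM and 1.74 TPM. Ndufa4, grouped here by its symbol with complex I although it is now counted to complex IV, had 242 TPM in precursors and 214 TPM in marrow, while Ndufa4l2 was listed at 0 in precursors. Cox6b2 was the exception among the tissue isoforms, with 28.7 TPM in precursors and 51.9 TPM in marrow beside 528 TPM and 461 TPM for Cox6b1. The 3 genes for the c subunit of ATP synthase encode the same mature protein, and Atp5g3 supplied 66.9% to 76.6% of their TPM in the marrow table. This share depends on the Atp5g2 values of that table. For Atp5g2 the tables cannot be set side by side: over the 3 marrow libraries quantified in both, it was assigned 1190 counts in the precursor table and 453 counts in the marrow table, a ratio of 2.62, while 75 of the 80 members with 100 or more counts lay within 10%.

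G-CSF alone left most members near their untreated levels in marrow, and 3 rose: Sdhc, Cox6b2 and Ndufs1. Sdhc, which anchors complex II in the membrane, had 96.4, 95.5 and 65.1 CPM in G-CSF marrow against 45.4 and 53.4 CPM in untreated marrow. Cox6b2 had 33.9, 24.98 and 27.0 CPM in G-CSF marrow against 18.3 and 14.3 CPM in untreated marrow. Ndufs1, the largest core subunit of complex I with iron-sulfur clusters, had 96.2, 106.4 and 75.3 CPM in G-CSF marrow against 48.2 and 56.4 CPM in untreated marrow. In each of the 3 genes every G-CSF library lay above both untreated libraries. In GRCm38 Sdhc lies at chr1:171127165-171150603, Cox6b2 at chr7:4751792-4753094 and Ndufs1 at chr1:63143596-63176833, all on the minus strand. The log2 fold changes were 0.79 ± 0.20 for Sdhc (SE; edgeR adjusted p = 0.0329), 0.82 ± 0.21 for Cox6b2 (adjusted p = 0.0349) and 0.82 ± 0.22 for Ndufs1 (adjusted p = 0.0412). These are 3 of 80 members tested, with none lower, against 11.8% of all genes tested (4.93% higher and 6.91% lower), so the share of members called was below the background. The exons of Ndufs1 overlap those of Eef1b2 on the opposite strand, and since strand use in counting is not given in the sources used here, its counts are uncertain. All 3 calls are close to the threshold: without G-CSF replicate 1, G-CSF replicate 2, untreated replicate 2 or either combined library, the count was 0.

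The other members under G-CSF are given as values. The next by p were Ndufa5 (0.74 ± 0.25), Ndufs3 (0.50 ± 0.17) and Ndufb4 (0.69 ± 0.24), all complex I subunits with adjusted p between 0.0857 and 0.0902. Cycs had 41.4, 36.1 and 31.5 CPM in G-CSF marrow and 28.2 and 14.9 CPM in untreated marrow, a difference of 0.76 ± 0.27 that did not pass (adjusted p = 0.0964). Over the 80 members the median log2 fold change was 0.13, beside 0.01 for all genes tested, and 55 were positive. This value moved with single libraries. It was 0.43 without untreated replicate 1, the library with the large small RNA share, and -0.09 without untreated replicate 2. Leaving out G-CSF replicate 1 gave -0.03, and leaving out G-CSF replicate 3 gave 0.27. By complex the medians were 0.35 for the 7 core subunits of complex I, 0.12 for its accessory subunits, 0.27 for complex II, -0.04 for complex III, 0.11 for complex IV and 0.07 for ATP synthase. On the TPM scale the log2 change of 4810 well expressed genes moved up by 0.81, and members then stood 0.11 above those genes, against 0.10 above them in counts. In the same libraries the summed CPM of 15 erythroid markers was 155300 to 206700 in G-CSF marrow and 307800 to 421000 in untreated marrow, with 7 of the 15 lower and none at 0; the part of this shift in the members' values was not tested. In bulk marrow, fewer cells of a type and less RNA per cell cannot be told apart.

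**Figure D2:**
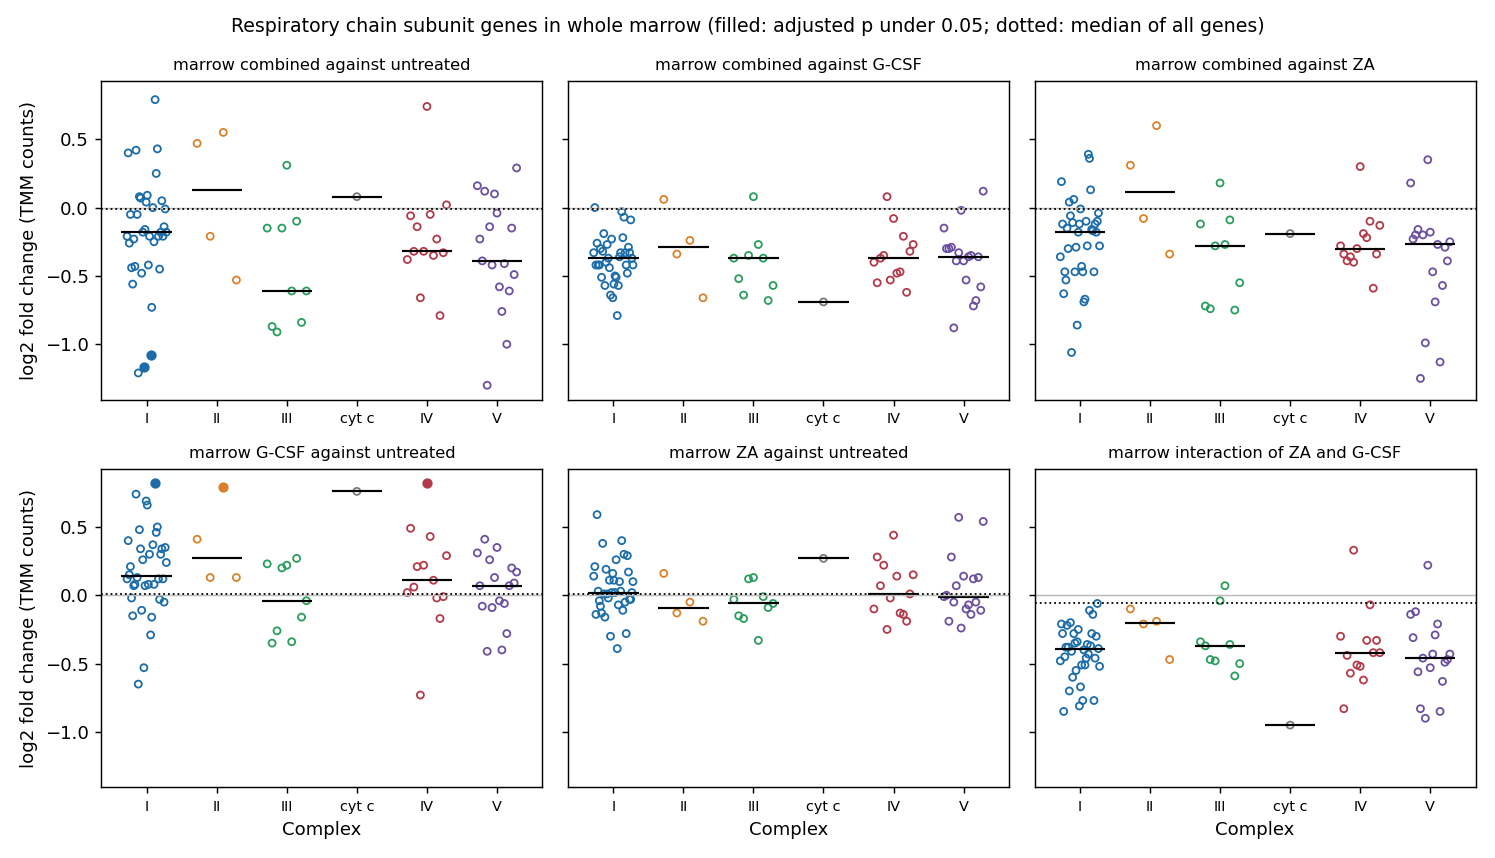
Log2 fold change (TMM counts) of the 80 members tested in each whole marrow comparison, by complex; filled points passed an adjusted p of 0.05, bars are medians of a complex and the dotted line is the median of all genes tested. Most points lie below the dotted line in the combined treatment against G-CSF, where 76 of 80 are not positive and none is filled.

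ZA alone moved no member past the threshold, of 80 tested, against 0.0339% of all genes tested (5 of 14737, 0.00679% higher and 0.0271% lower). The median of the members was 0.00, beside 0.01 for all genes, with 41 members positive and none at an unadjusted p under 0.05, where 9.47% of all genes were. Atp5g1, a gene for the c subunit, had 55.4 and 37.9 CPM in ZA marrow against 36.9 and 26.04 CPM in untreated marrow. Both ZA values were above both untreated values, and the difference of 0.57 ± 0.26 did not pass (adjusted p = 0.536). Cox6b2 had 23.3 and 20.8 CPM in ZA marrow against 18.3 and 14.3 CPM in untreated marrow (0.44 ± 0.23, adjusted p = 0.558), again without overlap. Members described as not overlapping, here and below, were mostly picked for a small p. The share of all genes without overlap was not counted. In the other direction Uqcrc2, a core protein of complex III, averaged 110 ± 4.19 CPM in ZA marrow and 138 ± 22.4 CPM in untreated marrow (SD, n = 2 each; -0.33 ± 0.19, adjusted p = 0.598). Ndufb8 averaged 78.8 ± 1.24 CPM in ZA marrow and 103 ± 2.30 CPM in untreated marrow (-0.39 ± 0.24, adjusted p = 0.627). The 4 Sdh genes differed by -0.19 to 0.16. Without untreated replicate 1 the members' median was 0.26, and without replicate 2 it was -0.21.

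Under the combined treatment Ndufb8 and Ndufb2, accessory subunits of the membrane arm of complex I, were lower than in untreated marrow. Ndufb8 had 51.6 and 45.7 CPM in combined marrow against 104.9 and 101.7 CPM in untreated marrow. Ndufb2 had 14.6 and 14.7 CPM in combined marrow against 40.1 and 25.99 CPM in untreated marrow. For both genes the 2 combined libraries lay below both untreated libraries. Ndufb8 lies at chr19:44548572-44555440 on the minus strand and Ndufb2 at chr6:39592574-39603382 on the plus strand. The log2 fold changes were -1.08 ± 0.25 for Ndufb8 (adjusted p = 0.0298) and -1.17 ± 0.30 for Ndufb2 (adjusted p = 0.0448). On the TPM scale, where well expressed genes as a whole moved up by 1.2, the values were 0.11 for Ndufb8 and 0.06 for Ndufb2. The 2 calls compare with 7.72% of all genes tested (3.17% higher and 4.55% lower), and no member was called higher. The count of members lower was 0 without either combined library, untreated replicate 1 or G-CSF replicate 2, 1 without either ZA library and 7 without G-CSF replicate 3. Exons of Ndufb8 overlap those of Gm20538 on the same strand, and exons of Ndufb2 overlap those of Gm42420 on the same strand and Braf on the opposite strand, so reads may be shared.

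Among the remaining members in this comparison Atp5e, the epsilon subunit of ATP synthase, had 55.8 and 60.6 CPM in combined marrow and 171.3 and 114.9 CPM in untreated marrow (-1.30 ± 0.37, adjusted p = 0.0691). Uqcrh, the hinge protein of complex III, had 88.9 and 87.2 CPM in combined marrow and 193.0 and 122.0 CPM in untreated marrow (-0.84 ± 0.25, adjusted p = 0.0801). Ndufs1 and Cox6b2, both called under G-CSF alone, had differences of 0.79 ± 0.24 (adjusted p = 0.0761) and 0.74 ± 0.22 (adjusted p = 0.0811). Within complex II the 4 subunits split, with Sdha at 0.47 ± 0.22 and Sdhc at 0.55 ± 0.21, and Sdhb at -0.21 ± 0.25 and Sdhd at -0.53 ± 0.22, none past the threshold. The members' median was -0.21, beside -0.01 for all genes, with 21 positive. It was -0.61 for complex III, -0.39 for ATP synthase, -0.32 for complex IV and 0.05 for the core subunits of complex I. Without untreated replicate 1 the members' median was 0.07. Relative to the well expressed genes, members stood -0.11 in counts and -0.07 in TPM. Protein-coding genes with an implied length under the members' median had a median of -0.25 (563 genes), and longer ones -0.01. The part of gene length in the members' lower values was not tested. Erythroid markers summed to 122400 and 108000 CPM in combined marrow and 421000 and 307800 CPM in untreated marrow, with 8 of 15 lower. Of the monocyte markers 7 of 10 were lower, with sums of 517 and 559 CPM in combined marrow and 1370 and 1560 CPM in untreated marrow, and of the mature neutrophil markers 3 of 12 were lower. The part of these cell types in the members' values was not tested.

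Promoter sequences are shown for the 2 genes called under the combined treatment and for Cox6b2 and Uqcrh, whose values recur in the comparisons below. They run from 250 bases before to 50 bases after the gene's start, 5′ to 3′ on the gene's strand (RefSeq, GRCm38.p6), and capitals mark matches on either strand to 5 motifs named next.
Ndufb8: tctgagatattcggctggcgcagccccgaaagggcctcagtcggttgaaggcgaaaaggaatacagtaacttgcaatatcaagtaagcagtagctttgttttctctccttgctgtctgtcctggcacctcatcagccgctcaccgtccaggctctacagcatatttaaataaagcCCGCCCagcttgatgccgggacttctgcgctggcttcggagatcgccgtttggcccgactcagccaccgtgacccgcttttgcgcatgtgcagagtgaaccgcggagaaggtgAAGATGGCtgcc
Ndufb2: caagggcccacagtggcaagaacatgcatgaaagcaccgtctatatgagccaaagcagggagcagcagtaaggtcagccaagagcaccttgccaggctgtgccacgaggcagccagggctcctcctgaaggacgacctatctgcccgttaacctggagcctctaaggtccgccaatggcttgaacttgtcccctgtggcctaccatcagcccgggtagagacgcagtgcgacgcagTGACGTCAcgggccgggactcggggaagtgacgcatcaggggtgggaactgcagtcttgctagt
Cox6b2: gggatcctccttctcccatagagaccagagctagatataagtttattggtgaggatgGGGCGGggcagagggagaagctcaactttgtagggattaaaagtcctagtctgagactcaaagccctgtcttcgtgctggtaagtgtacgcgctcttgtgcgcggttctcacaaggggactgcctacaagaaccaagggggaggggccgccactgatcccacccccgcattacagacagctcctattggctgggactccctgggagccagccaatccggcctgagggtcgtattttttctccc
Uqcrh: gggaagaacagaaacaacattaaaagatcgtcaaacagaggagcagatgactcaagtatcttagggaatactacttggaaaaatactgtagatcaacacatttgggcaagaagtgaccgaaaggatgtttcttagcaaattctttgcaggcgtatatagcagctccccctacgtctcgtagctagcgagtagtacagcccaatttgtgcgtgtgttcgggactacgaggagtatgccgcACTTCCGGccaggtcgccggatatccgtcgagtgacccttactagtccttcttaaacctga
Ndufb8 lies on the minus strand with its window at chr19:44555393-44555692, Ndufb2 on the plus strand at chr6:39592315-39592614, Cox6b2 on the minus strand at chr7:4753045-4753344 and Uqcrh on the minus strand at chr4:116075021-116075320. The motifs were GCGCA and GCGC with any base between for NRF1 and CCGGAAGT for ETS factors such as GABPA, both known regulators of respiratory genes, with AAGATGGC for YY1, GGGCGG for SP1 and TGACGTCA for CREB. In these windows Ndufb8 matched YY1 and SP1, Ndufb2 matched CREB, Cox6b2 matched SP1 and Uqcrh matched ETS, with no overlap between matches. Of the 86 members, 67 had a promoter entry; Sdhc, Ndufs1 and Ndufb9 had none. NRF1 letters were found in 17 of the 67 (25.4%), against 7.17% of 17492 protein-coding genes with a window of this length. The shares were 13.4% of members and 3.57% of all genes for YY1, 7.46% and 5.69% for ETS, 7.46% and 2.54% for CREB, and 40.3% and 49.2% for SP1. A match is a description of letters and not of binding.

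Against G-CSF alone the combined treatment gave lower values for nearly every member, with log2 fold changes from -0.88 to 0.12. No member passed the threshold, where 0.00679% of all genes did (1 of 14737). DESeq2 called no member either, where it called 204 of 14737 genes. An unadjusted p under 0.05 was found for 21 members (26.2%) and for 10.4% of all genes. Of the 80 members tested 76 had a log2 fold change at or under 0, with a median of -0.37, beside -0.01 for all genes. Sdhd, a membrane anchor of complex II, had 76.7 and 70.7 CPM in combined marrow against 122.8, 129.4 and 95.8 CPM in G-CSF marrow. Ndufb8 had 51.6 and 45.7 CPM in combined marrow against 108.0, 85.5 and 60.0 CPM in G-CSF marrow. In both genes the combined libraries lay below all 3 G-CSF libraries, with G-CSF replicate 3 nearest to them. The differences were -0.66 ± 0.20 for Sdhd (adjusted p = 0.333) and -0.79 ± 0.23 for Ndufb8 (adjusted p = 0.313). The next by p were Atp5l (-0.68 ± 0.23), Uqcrh (-0.68 ± 0.23), Ndufb4 (-0.66 ± 0.23) and Cox6c (-0.48 ± 0.18). The medians by complex lay close together at -0.37 for complexes I, III and IV, -0.36 for ATP synthase and -0.29 for complex II.

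**Figure D3:**
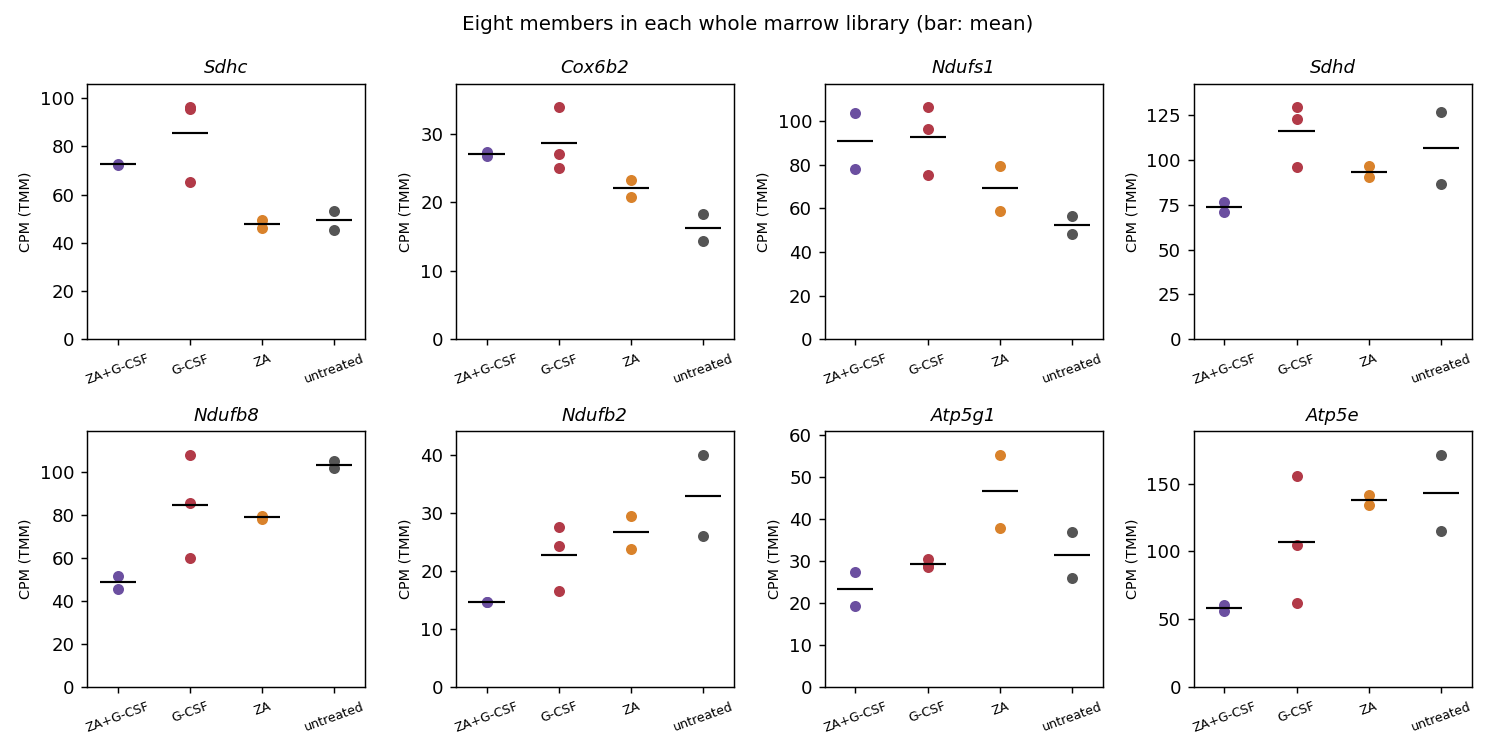
CPM (TMM) of 8 members in every whole marrow library, by group from the combined treatment to untreated; points are libraries and bars are means. Sdhc, Cox6b2 and Ndufs1 are higher in G-CSF than in untreated marrow, and Ndufb8 and Ndufb2 are lowest in combined marrow.

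Other measures moved with this shift. The 78 genes of mitochondrial ribosomal proteins had a median of -0.42 in the same comparison, with 1 positive. Protein-coding genes whose length, implied by the ratio of counts to TPM, was under the members' median had a median of -0.31 (563 genes), and longer ones 0.00. Within the members the shorter 40 had a median of -0.42 and the longer 40 of -0.34. The primary granule markers of promyelocytes, 7 genes that no library lacked, summed to 2535 and 2816 CPM in combined marrow and 3395 to 4273 CPM in G-CSF marrow. The 12 mature neutrophil markers had a median of -0.42 with none positive, and they summed to 22100 and 22570 CPM in combined marrow and 27650 to 37800 CPM in G-CSF marrow. The 13 skeletal muscle markers summed to 243 and 396 CPM in combined marrow and 34.3 to 86.6 CPM in G-CSF marrow. The part of gene length, granulocyte precursors, mature neutrophils or muscle tissue in the members' lower values was not tested. On the TPM scale the members' median was -0.01, while the well expressed genes moved up by 0.34; relative to those genes it was -0.25 in counts and -0.23 in TPM. It lay between -0.51 and -0.24 when any marrow library was left out.

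Against ZA alone no member passed either, where 4.33% of all genes did (1.87% higher and 2.46% lower). DESeq2 called 2 members lower, where it called 1024 of 14737 genes. An unadjusted p under 0.05 was found for 12 members (15%) and for 17.3% of all genes. Atp5g1 had 27.4 and 19.3 CPM in combined marrow against 55.4 and 37.9 CPM in ZA marrow (-0.99 ± 0.26, adjusted p = 0.0682). Atp5e had 55.8 and 60.6 CPM in combined marrow against 134.4 and 141.8 CPM in ZA marrow (-1.25 ± 0.37, adjusted p = 0.11). Sdhc had 72.2 and 72.8 CPM in combined marrow against 46.0 and 49.4 CPM in ZA marrow (0.60 ± 0.21, adjusted p = 0.174). In all 3, picked for a small p, the groups did not overlap, Atp5g1 and Atp5e being lower and Sdhc higher in combined marrow. Uqcrh (-0.75 ± 0.25), Ndufb2 (-0.86 ± 0.29) and Ndufb8 (-0.69 ± 0.24) completed the 6 smallest p, with adjusted p between 0.157 and 0.177. The members' median was -0.26, beside -0.01 for all genes, with 12 positive. On the TPM scale it was 0.47, while the well expressed genes moved up by 0.73. In counts, protein-coding genes shorter than the members' median length had a median of -0.27, and longer ones 0.01. The part of gene length was not tested. In the same comparison 5 of 15 erythroid markers were lower and 1 higher, 3 of 12 mature neutrophil markers were lower, with sums of 22100 and 22570 CPM in combined marrow and 40730 and 40120 CPM in ZA marrow, and 9 of 12 skeletal muscle markers were higher. The part of these cell types in the members' values was not tested.

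Whether the combined treatment departed from the sum of its parts was tested as an interaction on the log2 scale. No member passed, where 0.00679% of all genes did (1 of 14737). An unadjusted p under 0.05 was found for 6 members (7.5%) and for 11.8% of all genes. The median of the members' interaction terms was -0.42, beside -0.06 for all genes, and 77 of 80 were not positive. Protein-coding genes shorter than the members' median length had a median of -0.37, and longer ones -0.03. The part of gene length in the members' terms was not tested. The smallest p belonged to Cox5a, a complex IV subunit (-0.83 ± 0.32, adjusted p = 0.372), Atp5g1 (-0.90 ± 0.35, adjusted p = 0.379), Ndufb7 (-0.77 ± 0.31, adjusted p = 0.386) and Cycs (-0.95 ± 0.39, adjusted p = 0.394). Cycs had 22.2 and 22.98 CPM in combined marrow, 41.4, 36.1 and 31.5 CPM with G-CSF, 28.7 and 22.8 CPM with ZA and 28.2 and 14.9 CPM in untreated marrow. Its combined values thus lay below those of G-CSF and within the range of untreated marrow. The members' median was -0.67 without untreated replicate 1 and -0.19 without replicate 2. These 4 groups are shared among all marrow comparisons, so the medians above are not independent of each other.

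Summed over the 86 nuclear members, transcripts made up 6893 and 6172 CPM in combined marrow, 9594, 8397 and 6899 CPM in G-CSF marrow, 7711 and 7472 CPM in ZA marrow and 8762 and 6383 CPM in untreated marrow. The 4 groups overlapped except that combined marrow lay just below G-CSF and below ZA marrow. The 13 protein genes of mitochondrial DNA followed another pattern. They summed to 17150 and 12550 CPM in combined marrow, 9924, 11200 and 10760 CPM in G-CSF marrow, 21760 and 25100 CPM in ZA marrow and 14520 and 13470 CPM in untreated marrow. The ratio of mitochondrial to nuclear transcripts within a library, which no scaling between libraries changes, was 2.49 and 2.03 in combined marrow and 1.03, 1.33 and 1.56 in G-CSF marrow. It was 2.82 and 3.36 in ZA marrow and 1.66 and 2.11 in untreated marrow. G-CSF libraries lay below all others and ZA libraries above all others, while combined and untreated marrow overlapped. With 3 against 2 libraries the doubled one-sided p of an exact permutation test cannot go below 0.2, and with 2 against 2 it cannot go below 0.333.

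**Figure D4:**
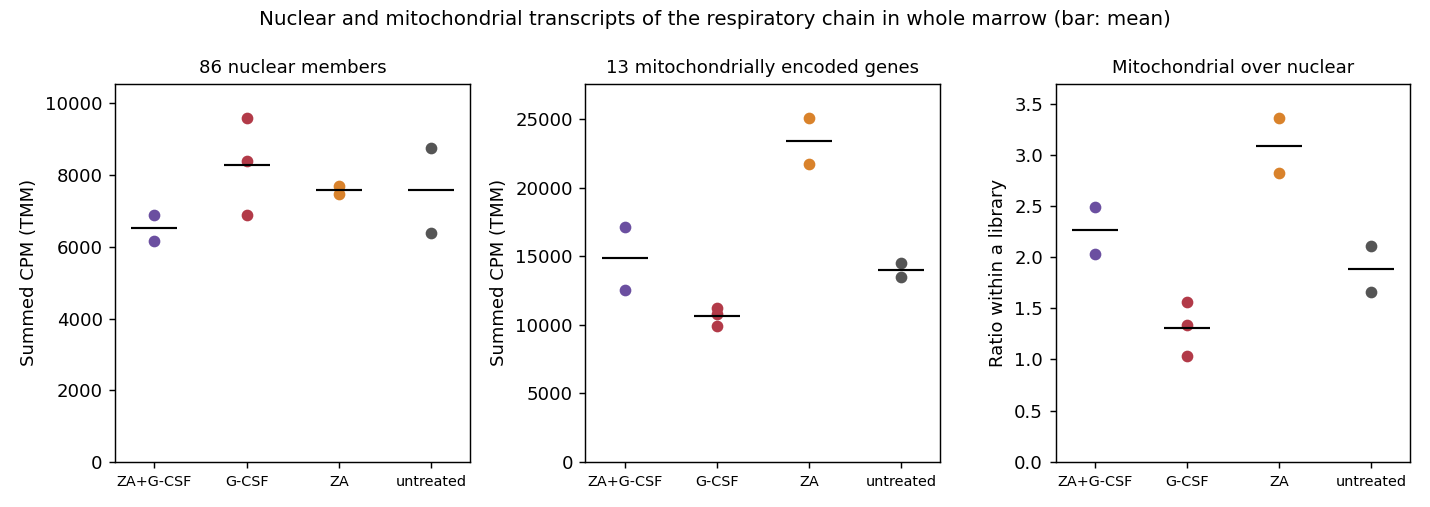
Summed CPM (TMM) of the 86 nuclear members (left), of the 13 mitochondrially encoded genes (middle) and their ratio within each library (right), for whole marrow; points are libraries and bars are means. The ratio is 1.03 to 1.56 in G-CSF libraries and 2.82 to 3.36 in ZA libraries.

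Among the mitochondrial genes themselves 5 of 13 were lower and 2 higher in G-CSF than in untreated marrow. mt-Nd5, a proton-pumping subunit of complex I, averaged 289 CPM in G-CSF and 749 CPM in untreated marrow (-1.38, adjusted p = 0.0019), and mt-Co1, the catalytic subunit of complex IV, averaged 2419 CPM and 4743 CPM (-0.97, adjusted p = 0.0068). mt-Co2 went the other way, with 1242 CPM in G-CSF and 561 CPM in untreated marrow (1.15, adjusted p = 0.0123). In combined against untreated marrow mt-Co2 (1.76, adjusted p = 0.00347) and mt-Atp6 (1.13, adjusted p = 0.0270) were higher and no mitochondrial gene was lower. In combined against ZA marrow 4 of 13 were lower, among them mt-Co1 (-0.91, adjusted p = 0.0276) and mt-Cytb (-1.03, adjusted p = 0.0322).

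Other genes of the pathway are read against the shares of all genes, 4.93% higher and 6.91% lower in G-CSF and 3.17% higher and 4.55% lower in combined against untreated marrow. Of 49 assembly factors tested, Ndufaf1 (1.48, adjusted p = 0.0174) and Ndufaf4 (0.98, adjusted p = 0.0474), both needed to build complex I, were higher in G-CSF than in untreated marrow, and Ndufaf1 was also higher in combined marrow (1.45, adjusted p = 0.0327). Of 20 regulators of mitochondrial biogenesis Polrmt, the mitochondrial RNA polymerase, was higher in G-CSF (1.17, adjusted p = 0.0247) and in combined marrow (1.2, adjusted p = 0.0418) than in untreated marrow. Of 13 coenzyme Q genes Pdss2 (1.40, adjusted p = 0.0395) and Coq5 (0.76, adjusted p = 0.0464) were higher in G-CSF marrow, and of 78 mitochondrial ribosomal genes Mrps26 and Mrpl38 were higher. None of 14 citric acid cycle genes passed in any marrow comparison. Of 17 glycolytic genes 3 were lower in G-CSF and in combined marrow: Eno1 (-1.38 and -1.37), Gapdh (-0.76 and -0.88) and Gpi1 (-0.52 and -0.85). The same 3 were lower in combined than in ZA marrow, by log2 values of -1.28 for Eno1 and -1.17 for Gpi1. ZA alone gave no call in any of these lists.

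In the precursors the treatments moved no member past the threshold, and edgeR called no gene at all (0% of 18779). DESeq2 called no member either. It called 91 genes for the combined treatment against G-CSF and 30 with against without G-CSF. For the combined treatment against G-CSF 10 of 82 members (12.2%) had an unadjusted p under 0.05 with edgeR, and 6.95% of all genes did. Atp5f1, a stator subunit of ATP synthase, had 246, 246 and 231 CPM in combined precursors against 299, 266 and 283 CPM in G-CSF precursors. Ndufb9 had 62.5, 58.9 and 59.5 CPM in combined precursors against 69.0, 73.7 and 73.0 CPM in G-CSF precursors. Both genes had all combined libraries below all G-CSF libraries, with differences of -0.23 ± 0.07 (adjusted p = 0.687) and -0.25 ± 0.08 (adjusted p = 0.691). Sdha had 327, 276 and 265 CPM in combined precursors and 265, 250 and 236 CPM in G-CSF precursors (0.21 ± 0.09, adjusted p = 0.712). The members' median was -0.11, beside 0.01 for all genes, and 74 of 82 were not positive. It lay between -0.16 and -0.08 when any library was left out. The members stood at -0.08 relative to 6346 well expressed genes both in counts and in TPM. Protein-coding genes shorter than the members' median length had a median of -0.08 (646 genes), and longer ones 0.00. Erythroid markers summed to 960 to 7045 CPM in combined precursors and 316 to 1087 CPM in G-CSF precursors. Small RNA genes took 43.7%, 22.6% and 33.9% of the TPM in combined precursors, against 20.1%, 29.0% and 18.9% in G-CSF precursors. The part of gene length, of erythroid RNA or of the small RNA share in the members' values was not tested.

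With against without G-CSF, pooled over ZA, 1 of 82 members had an unadjusted p under 0.05, against 3.63% of all genes: Ndufa3, an accessory subunit of complex I. It had 46.7, 49.4 and 50.7 CPM with both agents and 56.0, 54.3 and 54.0 CPM with G-CSF, against 54.0 CPM with ZA and 67.8 CPM untreated (-0.22 ± 0.08, adjusted p = 0.9999). The 2 groups overlapped at the ZA library. The members' median was 0.00 with 41 positive. The 2 groups without G-CSF hold 1 library each, which is assumed to vary like the others. Summed CPM of the members was 8368 to 9362 over the 8 precursor libraries, and the ratio of mitochondrial to nuclear transcripts was 1.84 to 2.37, with combined and G-CSF libraries overlapping on both.

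**Figure D5:**
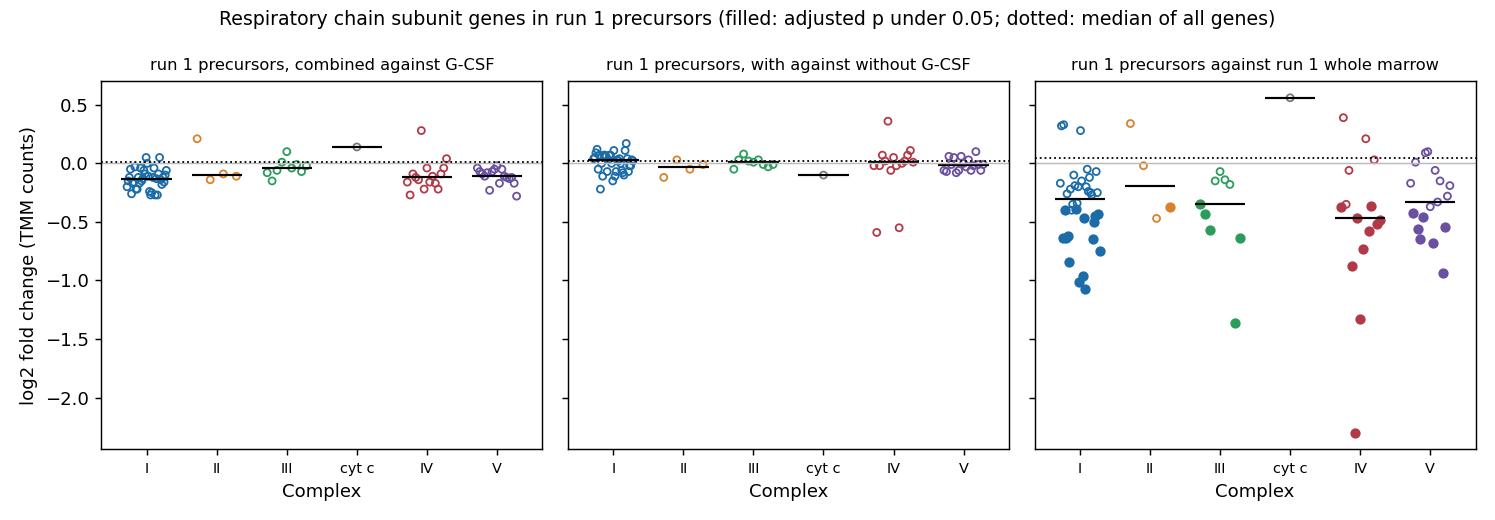
Log2 fold change (TMM counts) of the 82 members tested in run 1 precursors for the 2 treatment comparisons and for precursors against whole marrow, by complex; filled points passed an adjusted p of 0.05, bars are medians of a complex and the dotted line is the median of all genes. Filled points occur in the right panel, where 38 members are lower.

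Sorted precursors were set against the marrow of the same run, 5 libraries against 3, with treatment in the model. On the scale of normalised counts 38 of 82 members were lower in precursors and none higher, whereas on the TPM scale 45 were higher and 1 lower. The background on the count scale was 44.6% of all genes (21.1% higher and 23.5% lower), and on the TPM scale 11177 of 16185 genes were called. The TPM scale moved the well expressed genes up by 0.86, and relative to those genes the members stood at -0.39 in counts and -0.36 in TPM. As a share of protein-coding TPM the members made up 2.85% to 3.00% in the 5 precursor libraries compared here and 1.097% to 1.76% in run 1 marrow. Haemoglobin and other erythroid markers summed to 270 to 1819 CPM in precursors and 232600 to 398400 CPM in marrow, and all 15 were lower. The part of erythroid RNA in either scale was not tested.

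On the count scale Uqcrh had the smallest p. It had 73.5, 66.6, 73.3, 70.0 and 66.0 CPM in precursors against 155, 201 and 174 CPM in marrow. Every precursor library lay under every marrow library, and the log2 fold change was -1.36 ± 0.11 (adjusted p = 1.02e-04), with -0.47 on the TPM scale. Ndufb9, a complex I accessory subunit, had 57.1, 59.1, 62.9, 62.4 and 54.4 CPM in precursors against 111, 128 and 126 CPM in marrow (-1.07 ± 0.10, adjusted p = 1.57e-04). Its exons overlap those of Gm49356 on the same strand. Next were Atp5l (-0.94), Cox6b2 (-1.33), Cox6a1 (-0.88), Ndufb7 (-0.96), Cox6a2 (-2.30), Ndufv3 (-0.75), Atp5h (-0.68), Cox6c (-0.73), Uqcr11 (-0.57) and Uqcrq (-0.64), with adjusted p of 0.00392 or less; on the TPM scale Cox6a1, Ndufv3, Atp5h, Cox6c, Uqcr11 and Uqcrq stood at or above 0. Cox6b2, the testis form, had 10.1 to 11.7 CPM in precursors and 18.6 to 32.4 CPM in marrow. It made up 4.77% to 5.02% of Cox6b TPM in the 5 precursor libraries compared here.

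The calls were spread over the complexes: 15 of 36 in complex I, 1 of 4 in complex II, 5 of 9 in complex III, 10 of 15 in complex IV and 7 of 17 in ATP synthase. Within complex II Sdhd was called (-0.37 ± 0.12, adjusted p = 0.0478), while Sdha was at 0.34 ± 0.16, Sdhb at -0.02 ± 0.11 and Sdhc at -0.47 ± 0.21. Sdha had 241, 227, 213, 202 and 260 CPM in precursors against 187, 212 and 144 CPM in marrow, and the groups overlapped at 1 marrow library. Cycs had 55.1, 38.7, 41.8, 50.7 and 44.4 CPM in precursors against 17.6, 42.4 and 32.6 CPM in marrow (0.56 ± 0.28, adjusted p = 0.135). The median over the members was -0.35, beside 0.05 for all genes. Protein-coding genes shorter than the members' median length had a median of -0.18, and longer ones 0.03. The part of gene length was not tested. Without the marrow G-CSF library 22 members were lower and 2 higher, with a median of -0.20, and without the ZA precursor library 25 were lower.

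For the other lists in this comparison the counts were as follows, beside 21.1% of all genes higher and 23.5% lower. Of 17 glycolytic genes 7 were higher, such as Pgam1 (0.83) and Pfkp (0.96), and 3 lower, such as Hk1 (-1.84) and Pfkm (-2.14). Of 14 citric acid cycle genes Idh2 (1.08) and Idh3g (0.78) were among 4 higher, and Mdh2 and Dlst (both -0.48) were lower. Of 49 assembly factors 7 were higher and 8 lower, with Cox17, the copper chaperone of complex IV, at -1.53 and Uqcc1 at 1.21. Of 78 mitochondrial ribosomal genes 5 were higher and 17 lower, of 13 coenzyme Q genes 3 were higher and 3 lower, of 20 biogenesis regulators 4 were higher and 2 lower, and 2 of 13 mitochondrially encoded genes were lower.

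The muscle isoforms were low in marrow. In TPM Cox8b and Cox7a1, though not Cox6a2, had both combined libraries above all others, and in CPM only Cox8b did. Cox8b had 8.00 and 3.62 TPM in combined marrow and 1.07 and 0.97 TPM in G-CSF replicates 1 and 2, and it was listed at 0 in G-CSF replicate 3 and in all ZA and untreated libraries. Cox7a1 had 5.46 and 2.78 TPM in combined marrow, 2.19, 0.94 and 0.33 TPM with G-CSF, 0.31 and 0.68 TPM with ZA and 1.27 and 1.71 TPM in untreated marrow. Cox6a2 had 7.98 and 3.68 TPM in combined marrow, 5.09, 3.68 and 4.41 TPM with G-CSF, 3.61 and 5.78 TPM with ZA and 2.96 and 5.48 TPM in untreated marrow. In TPM combined replicate 1 was highest in all 3 genes, and Cox6a2 overlapped between all groups. Counted in CPM, Cox7a1 had 1.47 and 0.69 in combined marrow, against 1.14 in untreated replicate 1 and 0.81 in G-CSF replicate 1. Cox6a2 was highest in untreated replicate 1 with 7.00 CPM, against 5.66 CPM in combined replicate 1. Cox8b and Cox7a1 did not pass the filter on low counts in marrow. The 13 skeletal muscle markers summed to 396 and 243 CPM in combined marrow, 86.6, 62.4 and 34.3 CPM with G-CSF, 22.3 and 16.5 CPM with ZA and 13.1 and 14.4 CPM in untreated marrow. Of the 12 tested, 10 were higher in combined than in untreated marrow; 5 of the 13 were at 0 in each untreated library and none in a combined one. Exons of Cox6a2 overlap those of Itgad on the opposite strand, and the part of muscle tissue in these isoforms was not tested.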

How the data were processed

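RNA of 9 whole marrow libraries and of run 1 sorted precursors was sequenced on an Illumina instrument after NEB Ultra library preparation, per the labels' protocols. The authors deposited estimated counts and TPM per gene from Salmon, with build mm10 and DESeq2 1.16.1 also named, per the submitters' processing notes; strand use and annotation are not given in the sources used here. Symbols, positions and exon overlaps came from GENCODE annotation of GRCm38 (99.1% of IDs matched in each table). Estimated counts were rounded and filtered with filterByExpr (minimum count 10, minimum total 15), scaled by TMM and tested with edgeR 4.0.16 (R 4.3.3) robust quasi-likelihood F tests. Benjamini-Hochberg adjustment ran over all genes tested, with a threshold of 0.05. Tests were of group means: 9 marrow libraries in 1 fit, 8 run 1 precursors in another, and precursors against marrow with treatment as a covariate. CPM are TMM-scaled; errors of log2 fold changes are SE and of CPM are SD. The depths above limit precision for genes of a few CPM. Alternatives were DESeq2 1.42.0, other size factors, no filter, limma 3.58.1 on log2(TPM + 1), protein-coding genes alone, 2 groups alone, a replicate block, left-out libraries, run 2, and 17 precursor libraries of both runs with a run term. Run 2 libraries stayed out of the main tests because 8 of 18 were closest to the other tissue.

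The members and gene lists were chosen with earlier results of these data known. Named by rule were members called (up to 12 each way), otherwise the 6 with the smallest p averaging at least 5 CPM, isoform sets, Cycs, Cyc1, the Sdh genes, and for levels the 10 highest and 5 lowest. The labels number biological replicates without saying whether each is 1 mouse or a pool, so p-values cover the spread between such samples only. Counts at 0 are estimates, so no floor is given.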

Additional observations from a re-analysis of the deposited data

Results flagged for a closer look

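In a group of 6 libraries, the run 1 precursors given G-CSF with or without ZA, 5 values had an end library apart from the rest, by a gap of over 0.625 of the range. Combined replicate 2 was highest for Cox6a2 (2.081 CPM) and for Cox8b (0.1921 CPM, the only library of the 6 with any). Combined replicate 3 was lowest for Cyc1 (96.74 CPM). G-CSF replicate 3 was highest for Sdhc (87.55 CPM), and combined replicate 1 was highest for the summed CPM of complex II (620.2 CPM). Chance marks about 1 in 20 groups, and 33 values were examined.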

How the results depend on the processing

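Deviations of same-numbered samples from their group means had correlations from -0.059 to 0.141 in marrow and -0.049 to -0.033 in precursors. With so few libraries a group, these correlations cannot decide whether a number marks a shared batch or animal. With a replicate block the combined treatment against untreated gave 0 members lower, where 481 of 14737 genes were called. Precursors against marrow gave 7 lower with the block, where 3292 of 16185 genes were called. The other counts of members called did not change with it. The block moved the members' median for ZA to 0.19, with 73 of 80 positive. Between tissues only untreated and G-CSF replicate 2 share a number, and with 1 marrow library a group their deviations could not be correlated, so that pairing was not examined. With the limma fit on log2(TPM + 1), 42 members were called higher for G-CSF, where 2848 of 14737 genes were called. For the combined treatment against untreated 48 were higher and 0 lower, where 5795 of 14737 genes were called. For precursors against marrow 45 were higher and 1 lower, where 11177 of 16185 genes were called. The medians on that scale were 0.94 for G-CSF, 0.45 for ZA and 0.98 for the combined treatment against untreated, -0.01 and 0.47 for the combined treatment against G-CSF and ZA, -0.38 and -0.18 for the 2 precursor comparisons and 0.52 for precursors against marrow. They carry the shift of all genes given above. Without the filter on low counts 6 members were higher with G-CSF, where 3206 genes in all were called. Combined against untreated marrow gave 2 higher and 11 lower, where 2540 genes were called. Against G-CSF the combined treatment gave 2 lower (557 genes called), and against ZA 1 higher and 5 lower (1587 genes called). Precursors against marrow gave 1 higher and 24 lower, where 7646 genes were called. DESeq2 gave 1 higher and 6 lower for the combined treatment against untreated and 2 lower against ZA. It called 1758 and 1024 of the 14737 genes in these comparisons. With only the 2 groups compared, 1 member was higher with G-CSF and 2 were lower in combined against ZA marrow. Of all genes, 1426 and 510 were called there. Leaving out a library gave 0 to 4 members higher with G-CSF (medians -0.09 to 0.43), a median of -0.21 to 0.26 with ZA, 0 to 7 lower with the combined treatment against untreated (medians -0.42 to 0.07), 0 to 1 lower against ZA (medians -0.33 to -0.16), medians of -0.51 to -0.24 against G-CSF, and 22 to 46 lower with 0 to 2 higher in precursors against marrow (medians -0.42 to -0.20). In precursors against marrow, 25 were lower without the ZA precursor library. The run 2 libraries, of which 8 of 18 were closest to the other tissue, gave 0 called and a median of 0.03 in precursors against marrow, with Uqcrh at 0.29, Ndufb9 0.16, Atp5l 0.18, Cox6b2 0.31, Cox6a1 0.25, Ndufb7 0.21, Cox6a2 0.01, Ndufv3 0.15, Atp5h 0.15, Cox6c 0.11, Uqcr11 0.12 and Uqcrq 0.04. On the TPM scale Cox6a1 stood at 0 there, Ndufv3 at 0.14, Atp5h 0.20, Cox6c 0.16, Uqcr11 0.32 and Uqcrq 0.25, while Ndufb8 and Ndufb2 stood at 0.11 and 0.06 in combined against untreated marrow. The cause of these changes was not tested. The 17 precursor libraries of both runs, with a run term, gave 0 called in both treatment comparisons and medians of -0.11 and -0.09. RLE size factors and protein-coding genes alone moved none of the counts of members called past 1.5 times.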
